A study of Mus musculus with 12 samples.

Results

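The 6 Iroquois homeobox genes of the mouse, Irx1 to Irx6, were measured by RNA-seq in totipotent potential stem (TPS) cells and extended pluripotent stem (EPS) cells. They were chosen by name among the 55401 genes counted, after identifiers were matched to GENCODE M21, and all 6 were present with the annotation's own identifier versions. Each cell type was represented by 3 lines and each line by 2 technical replicates, which gave 12 libraries. TPS cells were grown on feeder cells in the medium that the labels call VCED. The study's methods call the TPS medium CPEC, taken here to be the same, and list as its compounds CD1530 (an agonist of retinoic acid receptor gamma), VPA (which inhibits histone deacetylases), EPZ004777 (which inhibits DOT1L) and the Wnt agonist CHIR. EPS cells were grown on feeder cells in LCDM medium. Both groups therefore shared a feeder layer, whose RNA was not separated from that of the stem cells by any step that the labels describe. No genotype or strain is given for these lines in the labels. The labels also do not say how the lines of a group are related, so p-values measure the spread between these lines.

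Iroquois genes encode transcription factors with a homeodomain of the TALE class, in which a loop between helices is longer than in the Hox type. In mammals they lie in a pair of clusters made by duplication of an ancestral one: IrxA holds Irx1, Irx2 and Irx4, and IrxB holds Irx3, Irx5 and Irx6, so that Irx1 is paired with Irx3, Irx2 with Irx5 and Irx4 with Irx6. They are known for patterning the neural tube, the heart and the limb, where members of a cluster are often expressed in overlapping domains.

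In GRCm38 coordinates, Irx1 (ENSMUSG00000060969.9) lies on chr13:71957921-71963723 on the minus strand, and Irx2 (ENSMUSG00000001504.10) and Irx4 (ENSMUSG00000021604.15) follow on the plus strand at chr13:72628820-72634198 and chr13:73260479-73269608. Irx3 (ENSMUSG00000031734.13) lies on chr8:91798525-91802067 on the minus strand, and Irx5 (ENSMUSG00000031737.11) and Irx6 (ENSMUSG00000031738.14) follow on the plus strand at chr8:92357625-92376286 and chr8:92674288-92680956. Both clusters thus begin with a minus-strand gene and end with plus-strand genes. The IrxA cluster spans 1311.69 kb and the IrxB cluster 882.432 kb.

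How far reads could be told apart between members depends on how alike the genes are, so the stretch of 60 coding bases most alike in all 6 genes is shown here. It lies in the homeobox. Capitals mark the 55 positions that are identical in all 6 genes, and the sequences are from GENCODE M21 transcripts, read 5′ to 3′.
Irx1: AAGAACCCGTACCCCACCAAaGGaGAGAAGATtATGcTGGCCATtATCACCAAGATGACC
Irx2: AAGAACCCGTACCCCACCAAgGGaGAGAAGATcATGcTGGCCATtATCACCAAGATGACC
Irx4: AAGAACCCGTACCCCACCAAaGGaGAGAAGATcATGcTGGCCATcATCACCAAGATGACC
Irx3: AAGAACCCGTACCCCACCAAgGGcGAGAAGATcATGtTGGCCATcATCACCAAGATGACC
Irx5: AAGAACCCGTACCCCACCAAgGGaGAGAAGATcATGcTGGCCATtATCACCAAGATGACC
Irx6: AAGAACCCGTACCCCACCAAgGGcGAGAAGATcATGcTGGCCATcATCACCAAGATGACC
The stretch begins at coding base 451 in Irx1, 415 in Irx2, 499 in Irx4, 460 in Irx3, 406 in Irx5 and 499 in Irx6. Of the 5 positions that differ, 4 are the last position of a codon. Irx2 and Irx5, which are paralogues in different clusters, are identical over the whole stretch. Over whole transcripts, the longest run of bases shared exactly by any of the 15 pairs of members was 88 bases, between Irx3 and Irx6. That run is shorter than the reads of 100 bases, and no other gene matched a member at 95% identity or more over most of its length. Irx3 and Irx6 are each overlapped by an antisense gene, Irx3os and Gm45505, and strand use in counting was not given in the sources used here.

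The labels were checked first against genes that mark the cell types. Zscan4c, a marker of the 2-cell embryo, was at 72.6, 89.3 and 106 CPM (counts per 1e6, scaled by library total and composition) in the 3 TPS lines and at 2 counts or fewer in each EPS library. The pluripotency genes Sox2 and Nanog were present in all 6 lines, between 342 and 606 CPM for Sox2 and between 377 and 586 CPM for Nanog. Of 6 pluripotency genes, none was higher and 3 were lower in TPS lines (Pou5f1, Esrrb and Tdgf1, with Pou5f1 at a log2 fold change of -0.97 and an adjusted p of 0.0158). Library totals ran from 13676051 to 21821707 counts, and technical replicates were summed per line to between 29877215 and 38466294 counts. Of 17468 genes tested, 3791 passed an adjusted p of 0.05 (21.7%), with 2509 higher (14.4%) and 1282 lower (7.34%) in TPS lines. These counts depended on the lines: higher calls were 1617 without TPS line 3 and 1647 without EPS line 2, and lower calls were 493 without TPS line 3, 602 without TPS line 1, 767 without TPS line 2, 801 without EPS line 2 and 812 without EPS line 1. The median log2 fold change over all tested genes was close to 0.

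Most Iroquois genes were higher in TPS lines, in both clusters. Irx1, Irx3, Irx4 and Irx5 rose in TPS lines, Irx2 did not pass the test, and Irx6 had too few counts for one. Thus 4 of the 5 tested members passed as higher, against 14.4% of all tested genes, and none as lower. The number was 0 without EPS line 2, 1 without TPS line 3, 2 without TPS line 1 or EPS line 1, 3 without EPS line 3 and 4 without TPS line 2. In all 5 tested members each TPS line was above each EPS line, which was so for 23.6% of all tested genes. These counts describe the members and support nothing further, because the filter on low counts asked for about 10 counts in 3 lines. Irx3, Irx4 and Irx5 passed it through the TPS lines, since only 2, 0 and 2 of their EPS lines reached that level, and only Irx1 and Irx2 reached it in all 3 EPS lines. In these bulk samples, fewer cells that express a gene and less RNA of it per cell cannot be told apart. RNA of the feeder layer was also not separated by any step that the labels describe.

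**Figure D1:**
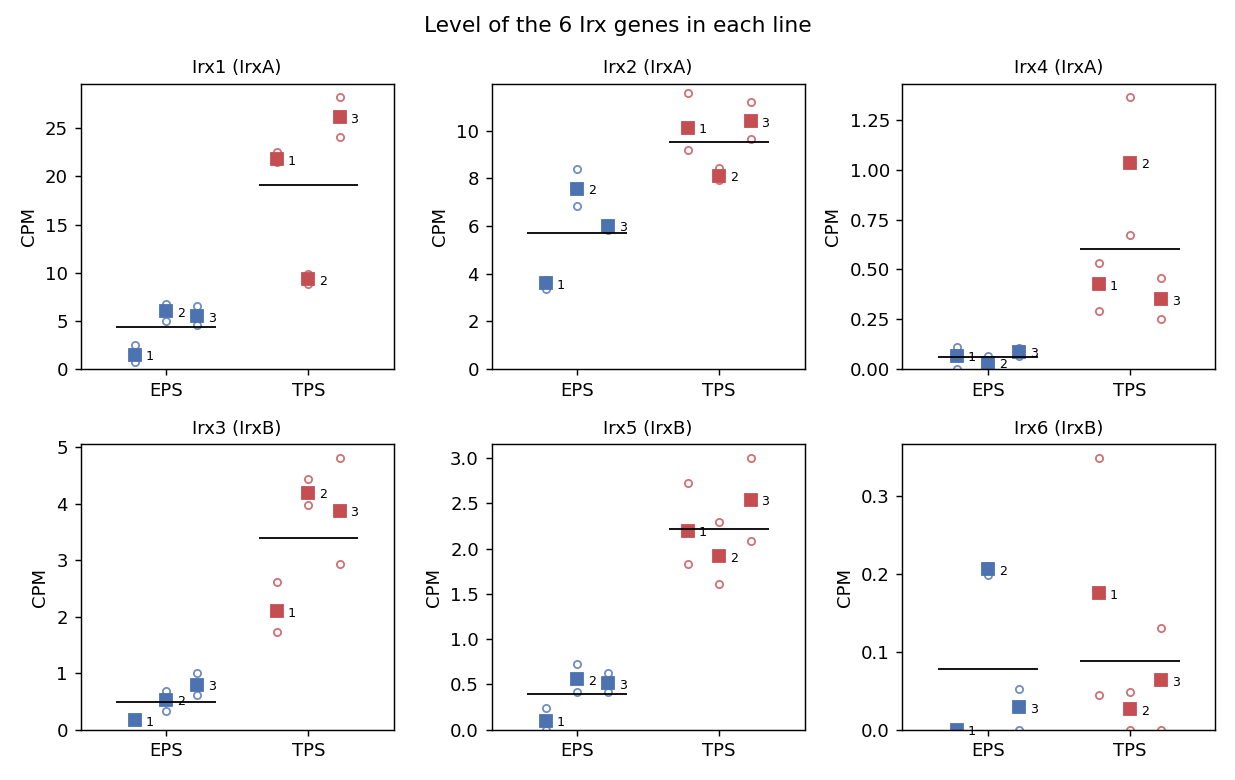
Level of each Irx gene in CPM (vertical axis, linear, from 0) in EPS and TPS lines. Filled squares are lines, numbered 1 to 3, open circles are their 2 technical replicates and horizontal bars are means of the 3 lines. For Irx1, Irx3, Irx4 and Irx5 the TPS squares all lie above the EPS squares, for Irx2 the gap is narrow, and for Irx6 the groups overlap near 0.

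Irx1, the first gene of the IrxA cluster and known from lung, limb and heart development, was the most abundant Iroquois gene in TPS lines. It was at 21.8, 9.32 and 26.1 CPM in TPS lines 1, 2 and 3 and at 1.47, 5.97 and 5.49 CPM in EPS lines 1, 2 and 3. TPS line 2 was the low one of its group and EPS line 1 of the other, and the groups did not overlap. The mean was 19.1 ± 8.72 CPM for TPS and 4.31 ± 2.47 CPM for EPS lines (SD, n = 3 each). The log2 fold change was 2.14 (SE 0.57), or 4.42-fold, with an adjusted p of 0.0354 by edgeR's quasi-likelihood test. This call held without TPS line 2 (adjusted p = 0.0266) and was lost without any other line, at an adjusted p of 0.0857 without TPS line 1, 0.105 without TPS line 3, 0.0546 without EPS line 1, 0.0669 without EPS line 2 and 0.065 without EPS line 3. The 2 technical replicates of EPS line 1 differed, with 31 counts (2.46 CPM) in one and 14 counts (0.766 CPM) in the other. Over all genes the replicates of that line differed by more than counting error, with a chi-square of 10.4 per degree of freedom against 2.68 to 24.3 over the 6 lines, so no p is given for the pair.

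Irx2, which lies next to Irx1 and is the paralogue of Irx5, had the smallest fold change of the 5 tested members. Its level was 10.1, 8.10 and 10.4 CPM in TPS lines 1 to 3 and 3.59, 7.56 and 6.0004 CPM in EPS lines 1 to 3. TPS line 2 was only 1.07 times the level of EPS line 2, and single libraries of the groups overlapped. The log2 fold change was 0.74 (SE 0.32) with an adjusted p of 0.136, which did not pass. It ran from 0.47 to 0.97 when 1 line was left out, and without EPS line 1 it was at the low end. When the 12 libraries were taken as separate samples, which counts each line more than once, the same change passed (adjusted p = 0.0104 by edgeR).

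Irx4, the last gene of the IrxA cluster and a regulator of ventricular identity in the heart, was rare throughout. It had 17, 40 and 11 counts in TPS lines 1 to 3 (0.424, 1.04 and 0.349 CPM) and 2, 1 and 3 counts in EPS lines 1 to 3 (0.0652, 0.0294 and 0.0853 CPM). No EPS library held more than 2 counts, and each of the TPS libraries held 4 or more, so the groups did not overlap. The pooled ratio of the scaled counts was 10.3 with an exact 95% interval of 4.48 to 29.0, which covers counting error only. Against a floor of 3 counts in the EPS library where they weigh most, the mean TPS level was 2.53 times as high. The fitted log2 fold change, which depends on these few EPS counts, was 3.26 (SE 0.68) with an adjusted p of 0.0157. Without TPS line 2, which held 40 of the 68 TPS counts, it was 2.61 (adjusted p = 0.0384). The call was lost without EPS line 1 (adjusted p = 0.0519) and without EPS line 2 (adjusted p = 0.0586).

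Irx3, the first gene of the IrxB cluster and the paralogue of Irx1, is known for patterning the ventral neural tube. It was at 2.10, 4.19 and 3.87 CPM in TPS lines 1 to 3 and at 0.163, 0.529 and 0.796 CPM in EPS lines 1 to 3. Here TPS line 1 was the low one of its group, whereas for Irx1 it was TPS line 2, and EPS line 1 was again at the bottom with 5 counts. Means were 3.39 ± 1.13 and 0.496 ± 0.318 CPM (SD, n = 3 each), and the log2 fold change was 2.75 (SE 0.59), or 6.74-fold, with an adjusted p of 0.0167. It was lost without TPS line 3 (adjusted p = 0.053) and without EPS line 2 (adjusted p = 0.0577). The antisense gene Irx3os, which overlaps Irx3, had 9, 12 and 5 counts in TPS lines and 0, 0 and 2 counts in EPS lines and was not tested, beside 84, 162 and 122 counts of Irx3 itself in the TPS lines.

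Irx5, next in the IrxB cluster and known for shaping the gradient of a potassium channel across the heart wall, showed little spread among TPS lines. It was at 2.20, 1.92 and 2.54 CPM in TPS lines 1 to 3 and at 0.0979, 0.559 and 0.512 CPM in EPS lines 1 to 3. The lowest TPS line was 3.43 times the highest EPS line, and EPS line 1 had 3 counts, all in 1 of its libraries. The log2 fold change was 2.49 (SE 0.58), or 5.60-fold, with an adjusted p of 0.0229. The call was lost without TPS line 1 (adjusted p = 0.0546), TPS line 3 (0.0695) or EPS line 2 (0.0507).

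Irx6, the last gene of the IrxB cluster, was barely detected. It had 7, 1 and 2 counts in TPS lines 1 to 3 and 0, 7 and 1 counts in EPS lines 1 to 3. TPS line 1 and EPS line 2 held most of these counts, and the groups overlapped. No difference was detectable at this depth: without a filter the log2 fold change was 0.13 with an SE of 1.20 (adjusted p = 0.966).

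**Figure D2:**
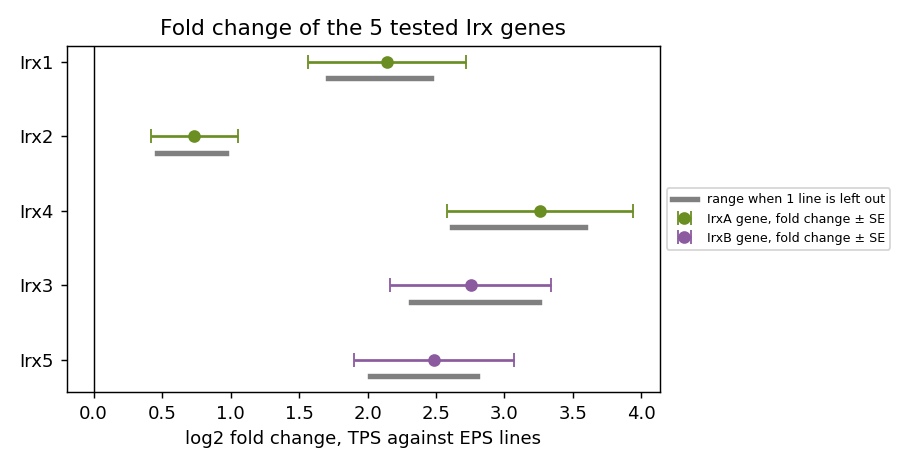
Log2 fold change of TPS against EPS lines (horizontal axis) for the 5 tested Irx genes, in chromosomal order within each cluster. Points with bars are fitted values ± SE and grey bars are the range over 6 fits that each left out 1 line. All ranges stay above 0, and Irx2, at 0.74, lies to the left of the other 4.

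The order of levels between genes was read on the TPM scale, which divides by gene length. In TPS lines the order was Irx1 at 20.4 ± 9.27, Irx2 at 8.17 ± 0.993, Irx3 at 3.46 ± 1.19, Irx5 at 2.00 ± 0.274, Irx4 at 0.654 ± 0.417 and Irx6 at 0.0730 ± 0.0634 TPM (SD, n = 3). Each step of that order held within each TPS line, although Irx3 and Irx5 were close in TPS line 1, at 2.11 and 1.95 TPM. In EPS lines Irx1 and Irx2 could not be ordered, at 4.20 ± 2.58 and 4.38 ± 1.80 TPM, since Irx2 was higher in EPS lines 1 and 2 and Irx1 in EPS line 3. Irx3 was above Irx5 in each EPS line, but their means of 0.461 ± 0.316 and 0.320 ± 0.218 TPM lay within their spread. Irx4 and Irx6, at 0.0568 ± 0.0287 and 0.0597 ± 0.0849 TPM, were also within their spread of each other in EPS lines.

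Summed over its members, the IrxA cluster was at 32.1, 18.3 and 37.4 TPM in TPS lines 1 to 3 and at 3.70, 11.8 and 10.4 TPM in EPS lines 1 to 3, a ratio of means of 3.39. The IrxB cluster was at 4.20, 6.10 and 6.30 TPM in TPS lines and at 0.199, 1.11 and 1.21 TPM in EPS lines, a ratio of means of 6.59. Both sums were higher in each TPS line than in each EPS line. The share of IrxA in the total was 88.4%, 75.02% and 85.6% in TPS lines and 94.9%, 91.4% and 89.6% in EPS lines, so the Irx RNA of TPS lines held relatively more IrxB. These shares did not overlap, although TPS line 1 and EPS line 3 lay close together. With 3 lines against 3 an exact two-sided permutation test cannot give a p under 0.1, so no p is given for shares or ratios.

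Within the total, Irx2 held a smaller share in TPS lines. It made up 24.3 ± 4.26% of the summed Irx level in TPS and 49.7 ± 10.7% in EPS lines (SD, n = 3), with no overlap, whereas Irx1 made up 56.5 ± 12.9% and 41.5 ± 8.56%, with overlap. Between paralogues, the ratio of Irx2 to Irx5 was 4.38, 4.03 and 3.89 in TPS lines 1 to 3 and 34.9, 12.9 and 11.2 in EPS lines 1 to 3. The ratio was thus narrow in TPS lines and higher in each EPS line, where EPS line 1 rests on only 3 Irx5 counts. The ratio of Irx1 to Irx3 ran from 2.34 to 10.9 in TPS and from 7.27 to 11.9 in EPS lines, and these ranges overlapped.

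**Figure D3:**
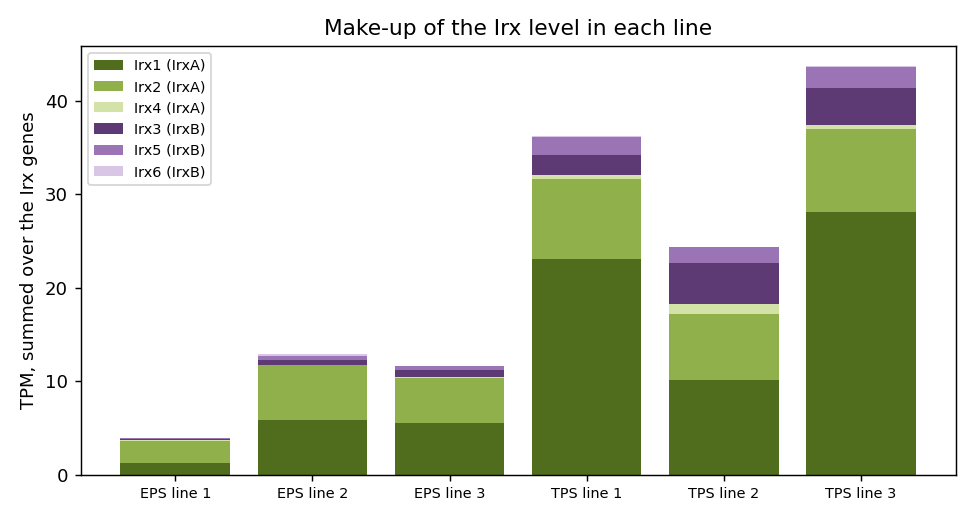
TPM summed over the 6 Irx genes (vertical axis, linear, from 0) in each line, stacked by gene, with IrxA genes in green and IrxB genes in purple. Irx1 and Irx2 make up most of each bar, and the purple part is visibly larger in the TPS lines, at 4.20 to 6.30 TPM against 0.199 to 1.21 TPM.

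The genes around the clusters were described next, since members of both clusters were higher. Between Irx1 and Irx4 lie 10 further annotated genes, none of them protein-coding, and 2 were tested. Gm20554, a lincRNA on the strand opposite to Irx2 and just ahead of it, had 41, 19 and 17 counts in TPS lines and 4, 8 and 8 counts in EPS lines. It was higher in TPS lines by a log2 fold change of 1.77 (SE 0.50, adjusted p = 0.0418), and lost the call in each of the 6 fits without 1 line (adjusted p from 0.0582 to 0.143). Rpl9-ps4, a pseudogene, was at -0.61 (adjusted p = 0.101). Between Irx3 and Irx6 lie 14 further genes, none protein-coding, and the single one tested was Crnde, a non-coding gene just ahead of Irx5 on the opposite strand. Crnde had 40, 23 and 39 counts in TPS lines and 24, 61 and 27 in EPS lines, so its groups overlapped although Irx5 beside it did not.

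Protein-coding neighbours did not follow the Irx genes as a block. Fto, whose gene lies 130 kb from Irx3 and whose introns are known to hold enhancers of IrxB genes, was lower in TPS lines, at 64.6 ± 3.23 against 88.8 ± 10.4 CPM (log2 fold change -0.46, SE 0.13, adjusted p = 0.0452). Rpgrip1l, a gene of the ciliary transition zone on the far side of Fto, was higher (0.90, SE 0.25, adjusted p = 0.0379), and Aktip beyond it did not pass (-0.17, adjusted p = 0.491). On the other side, Mmp2, a gelatinase of connective tissue cells 146 kb from Irx6, was at 116 ± 42.3 CPM in TPS and 28.2 ± 10.1 CPM in EPS lines. Its log2 fold change was 2.04 (SE 0.34, adjusted p = 0.00777), and it kept its call in all 6 fits without 1 line. Lpcat2, next to it, was higher by 1.25 (SE 0.37, adjusted p = 0.048). Fto and Lpcat2 lost their calls in each fit without 1 line, with adjusted p from 0.0576 to 0.135 and from 0.0731 to 0.148, and Rpgrip1l in all but that without TPS line 2.

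Around IrxA, the nearest protein-coding genes below Irx1 were 1116 kb or more away. Of these, Ice1 was lower in TPS lines (-0.47, SE 0.13, adjusted p = 0.0419, lost in 5 of the 6 fits without 1 line and kept without EPS line 1), Med10 did not pass (0.34, adjusted p = 0.303), and Adamts16 had 0, 7 and 3 counts in TPS lines 1 to 3 and none in EPS lines. Above Irx4, the mitochondrial genes Ndufs6 (-0.51, adjusted p = 0.0583) and Mrpl36 (-0.23, adjusted p = 0.335) and the lipid enzyme Lpcat1 (0.36, adjusted p = 0.123) did not pass. Within 500 kb of either end of a cluster, 2 of 8 tested genes were higher and 1 lower at IrxA, and 3 of 5 were higher and 1 lower at IrxB. Among all tested genes 14.4% were higher and 7.34% lower. At IrxA the lincRNA Eprn (1.42, adjusted p = 0.0304) and Clptm1l (0.48, adjusted p = 0.0396) were higher. Tert, the telomerase gene, was lower (-0.83, adjusted p = 0.029). Fits without 1 line were not examined for Eprn, Clptm1l and Tert.

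**Figure D4:**
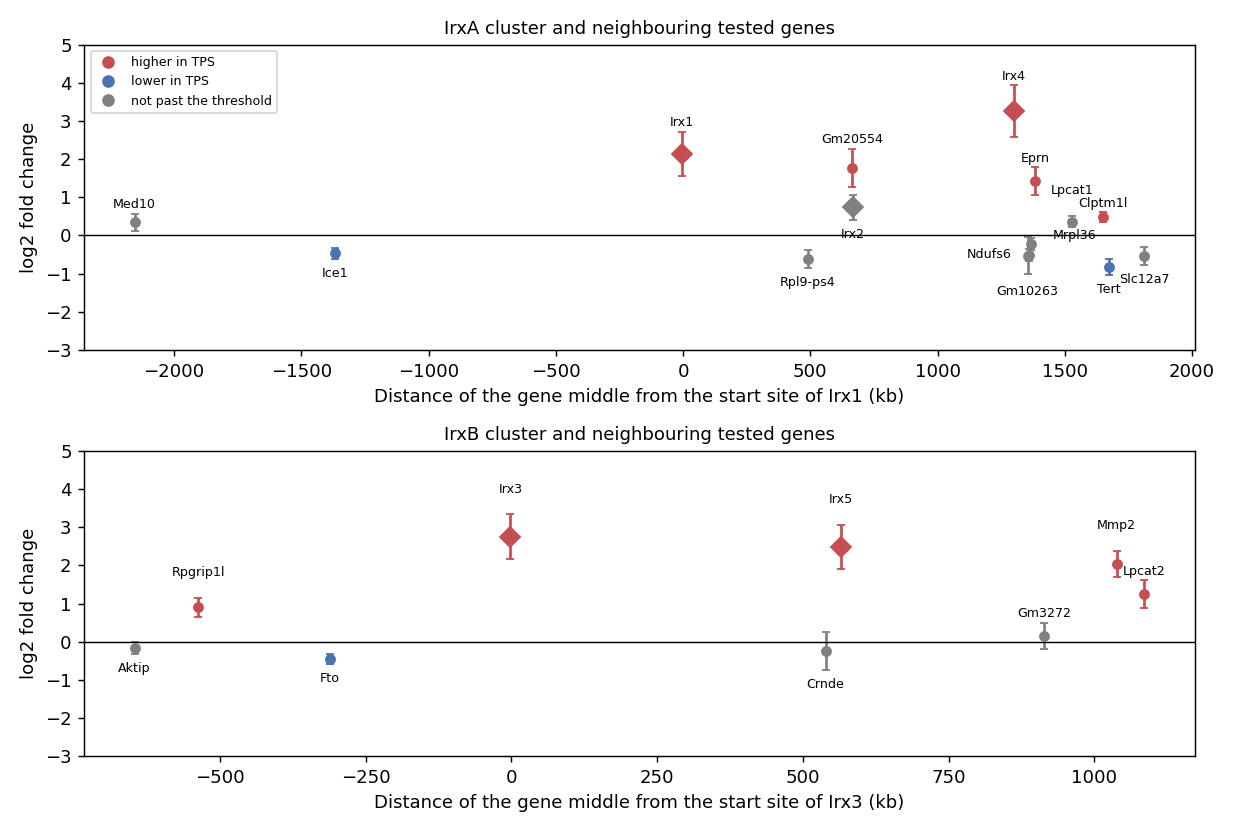
Log2 fold change ± SE of TPS against EPS lines (vertical axis) for the tested genes of and around each cluster, by the distance of the gene's middle from the start site of Irx1 or Irx3 in kb (horizontal axis). Diamonds are Irx genes, circles are other genes, red is higher, blue lower and grey not past the threshold. Irx genes reach 2.14 to 3.26 where called (3.26 is Irx4, fitted on few counts), while the genes called lower, Fto at -0.46, Ice1 at -0.47 and Tert at -0.83, lie below 0.

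Promoter sequences of 300 bases, from 250 before to 50 after the start site, were matched in the RefSeq table (GRCm38.p6) for Irx2, Irx3 and Irx4, and they are shown because they are the members with an entry there. They were searched on both strands for the GC box GGGCGG, the TATA box TATAAA, the CCAAT box CCAAT and the retinoic acid receptor half-site AGGTCA, and matches are in capitals. The Irx2 promoter is chr13:72628570-72628869 on the plus strand, that of Irx4 is chr13:73260247-73260546 on the plus strand and that of Irx3 is chr8:91801605-91801904 on the minus strand. The RefSeq starts of Irx3 and Irx4 differ from those of GENCODE M21, and the Irx3 window lies inside the GENCODE gene.
Irx2: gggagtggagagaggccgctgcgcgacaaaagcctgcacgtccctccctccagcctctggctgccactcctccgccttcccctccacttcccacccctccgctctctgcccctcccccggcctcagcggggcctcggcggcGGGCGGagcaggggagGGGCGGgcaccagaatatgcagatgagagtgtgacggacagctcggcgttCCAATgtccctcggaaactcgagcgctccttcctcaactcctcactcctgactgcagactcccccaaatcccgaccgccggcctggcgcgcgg
Irx4: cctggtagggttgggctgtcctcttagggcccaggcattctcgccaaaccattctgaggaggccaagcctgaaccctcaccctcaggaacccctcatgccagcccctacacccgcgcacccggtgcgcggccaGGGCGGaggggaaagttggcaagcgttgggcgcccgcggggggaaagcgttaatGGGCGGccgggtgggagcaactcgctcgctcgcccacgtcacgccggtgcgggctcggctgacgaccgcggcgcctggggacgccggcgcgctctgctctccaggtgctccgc
Irx3: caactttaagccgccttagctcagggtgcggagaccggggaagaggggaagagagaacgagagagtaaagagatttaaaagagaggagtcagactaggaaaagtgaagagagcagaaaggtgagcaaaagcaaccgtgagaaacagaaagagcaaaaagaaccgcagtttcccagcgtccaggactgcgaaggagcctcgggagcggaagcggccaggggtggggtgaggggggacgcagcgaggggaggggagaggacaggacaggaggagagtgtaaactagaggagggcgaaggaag
Irx2 and Irx4 held 2 GC boxes each, which 35.7% of 32851 promoters hold at least once, and Irx2 also held a CCAAT box, which 37.4% hold. None of the 3 held the half-site or the TATA box in this window, which 16.3% and 13.6% of promoters hold. CpG dinucleotides numbered 25 in Irx2, 31 in Irx4 and 14 in Irx3, against a median of 7 over all promoters, and GC content was 69.0%, 70.7% and 56.0%, against a median of 52.7%.

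Other TALE homeobox genes were less uniform. Among the 12 genes of the Meis, Pbx, Pknox, Tgif and Mkx families, all of which were tested, 5 passed as higher and 1 as lower, beside 14.4% and 7.34% of all tested genes. The median log2 fold change over the list was 0.67. Meis2 rose (2.84, SE 0.48, adjusted p = 0.00821), as did Meis1 (1.84, SE 0.43, adjusted p = 0.0227) and Meis3, which encode partners of Hox proteins on DNA. Tgif1, which encodes a repressor of retinoid and TGFβ signalling, fell (-0.66, SE 0.16, adjusted p = 0.0235), and no gene of the list passed as lower without TPS line 1, TPS line 2, EPS line 1 or EPS line 2. Leaving out 1 line left 1 gene called higher without EPS line 2, 2 without TPS line 1, TPS line 2 or EPS line 1, 3 without TPS line 3 and 4 without EPS line 3. Summed over the list, the level was 292 CPM in TPS and 293 CPM in EPS lines.

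Genes known to act upstream of, downstream of or opposite to Iroquois factors were mixed as well. Of 14, 8 were tested, 3 were higher and 1 lower (beside 14.4% and 7.34% of all tested genes), with a median log2 fold change of 1.503. Olig2, which is mutually repressive with Irx3 in the ventral neural tube, fell from 45.8, 77.7 and 40.9 CPM in EPS lines 1 to 3 to 0.799, 3.83 and 10.001 CPM in TPS lines 1 to 3 (log2 fold change -3.50, SE 0.78, adjusted p = 0.019). Hand2 (2.14, adjusted p = 0.0191), Gli3 (1.28, adjusted p = 0.0239) and Dbx2 (3.11, adjusted p = 0.0448, from 0 to 0.163 CPM in EPS lines) rose. These were lost in some fits without 1 line: no gene of the list passed as higher without EPS line 1, EPS line 2, TPS line 2 or TPS line 3, and none as lower without EPS line 2 or TPS line 2. The heart targets Kcnd2, regulated by Irx5, and Gja5, regulated by Irx3, were too rare to be tested, and Gja1, which did not pass, stood at 144 ± 29.8 CPM in TPS and 145 ± 36.9 CPM in EPS lines.

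Genes that respond to retinoic acid were higher in TPS lines with 1 exception. Of 12, all tested, 11 rose and none fell, beside 14.4% and 7.34% of all tested genes (Meis1 is counted here and among the TALE genes). Crabp2 did not pass (0.87, adjusted p = 0.229). The number called higher was 8 without EPS line 1 and 10 in each other fit without 1 line. Stra8, a retinoic acid target of germ cells, was at 62.0 ± 11.6 CPM in TPS and 0.246 ± 0.143 CPM in EPS lines (7.98, SE 0.42, adjusted p = 0.000152), and Stra6, a retinol transporter, rose by 5.72 (SE 0.61, adjusted p = 0.00222). Rarb, a retinoic acid receptor gene, was at 1.00 ± 0.0834 CPM in TPS lines with no count in any EPS library. The median log2 fold change of the list was 3.66, or 3.23 with Rarb set to the bound that 3 counts in an EPS library give.

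Fibroblast genes moved in the same direction as the Irx genes. Of 16 markers, all tested and none at 0, 10 were higher and none lower in TPS lines, beside 14.4% and 7.34% of all tested genes, with a median of 2.00. The count of markers called higher was 3 without EPS line 2 or TPS line 1, 4 without TPS line 3 and 6 without EPS line 1. Their summed level was 6096, 3413 and 3516 CPM in TPS lines 1 to 3 and 331, 1300 and 1382 CPM in EPS lines 1 to 3, a ratio of means of 4.32. The groups did not overlap, and EPS line 1, the lowest line for Irx1, Irx2, Irx3 and Irx5, was also the lowest here. The part of feeder or other fibroblast-like cells in the Irx result was not tested. Of markers of tissues in which Irx genes are known, 3 of 5 tested cardiomyocyte genes, 0 of 6 neural progenitor genes and 3 of 6 genes of limb and lateral mesoderm were higher, beside 14.4% of all tested genes, and none was lower. Hand2, counted here as higher, and Tbx5 and Pax6 are also among the genes linked to Iroquois factors above. Counts without 1 line were not made for these tissue lists. In sum these lists stood at 11.1 to 15.3, 26.0 to 55.0 and 6.71 to 24.2 CPM in TPS lines and at 3.88 to 6.98, 19.6 to 26.1 and 5.68 to 7.80 CPM in EPS lines.

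Irx levels were also set against 1000 CPM of the fibroblast sum, as a description only. Irx1 stood at 2.73 to 7.43 CPM in TPS lines and 3.97 to 4.59 CPM in EPS lines, which overlapped, with a ratio of means of 1.06. Irx3 stood at 0.344 to 1.23 and 0.407 to 0.576 (ratio 1.81), Irx5 at 0.360 to 0.722 and 0.296 to 0.430 (ratio 1.4999), and both overlapped, as did Irx4 (ratio 1.68). The Irx4 values in EPS lines 1 to 3 were 0.197, 0.0226 and 0.0617, on 2, 1 and 3 counts, so its ratio depended on single lines. Irx2 stood at 1.66 to 2.95 in TPS and at 4.34 to 10.9 in EPS lines (ratio 0.332). The divisor was itself higher in each TPS line (ratio of means 4.32), so a gene that rose by less comes out lower by construction. No share over all tested genes is given for these ratios, and no conclusion is drawn from them.

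**Figure D5:**
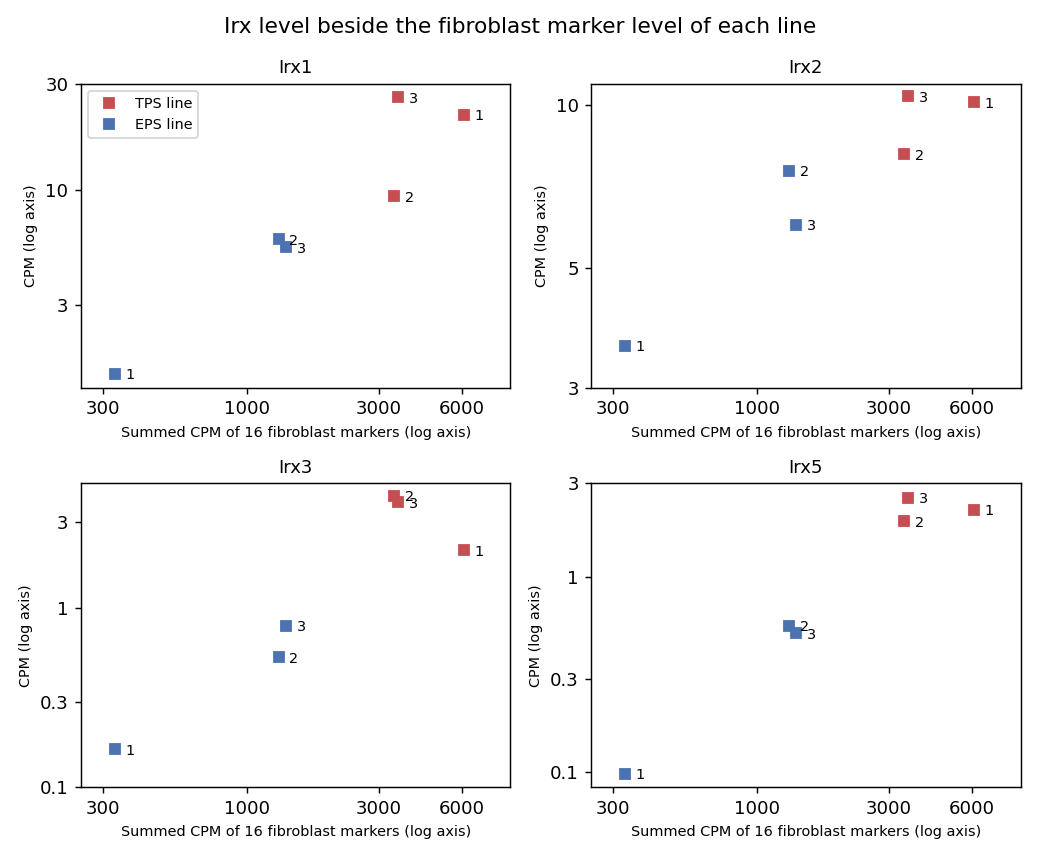
Level of Irx1, Irx2, Irx3 and Irx5 in CPM (vertical axes, log scale) against the summed CPM of 16 fibroblast markers (horizontal axes, log scale), with 1 point per line, red for TPS and blue for EPS, numbered by line. EPS line 1 is at the lower left in each panel at 331 CPM of the fibroblast sum, and TPS line 1 is at the right at 6096 CPM without being the highest for any of the 4 genes.

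Within the cell types, the members varied in different ways. Over the 12 libraries, on log2(CPM + 1) values with each cell type's mean removed, Irx1 and Irx2 correlated at r = 0.76, Irx2 and Irx5 at r = 0.81 and Irx1 and Irx5 at r = 0.74. Irx3 correlated at r = 0.20 with Irx1 and 0.42 with Irx5, and Irx4 at r = -0.56 with Irx1. With the mean of the fibroblast markers, r was 0.88 for Irx1, 0.79 for Irx2 and 0.64 for Irx5, against 0.07 for Irx3 and -0.42 for Irx4. These values are descriptions only, since technical replicates share a line, all genes share the depth of a library and Irx4 rests on few counts.

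By the same measure, which was not ranked for Irx4 and Irx6, over 13238 genes ranked, the genes most like Irx1 were Fgfr1 (r = 0.99), Clca3a1 (r = 0.97) and Atm (r = 0.96), and those most like Irx2 were Fam171a1, Taf4 and Cramp1l (r = 0.96, 0.96 and 0.95). For Irx3 they were Psmb8 (r = 0.92), Chst1 (r = 0.92) and Tcof1 (r = 0.88), and for Irx5 they were Zfp598 (r = 0.95), Unc80 (r = 0.89) and Usp42 (r = 0.87). These genes did not share a direction between the cell types. Fgfr1, which encodes a fibroblast growth factor receptor, was higher in TPS lines (log2 fold change 1.21, adjusted p = 0.00409). Fam171a1 (1.19, adjusted p = 0.0145) and Psmb8 (2.18, adjusted p = 0.0053) were higher too. Tcof1 (-0.57, adjusted p = 0.0161) and Zfp598 (-0.38, adjusted p = 0.0436) were lower. Clca3a1, Atm, Taf4, Cramp1l, Chst1, Unc80 and Usp42 did not pass. With a pseudocount of 0.1 in place of 1, Psmb8, Tcof1, Zfp598 and Unc80 fell to ranks 43, 298, 331 and 567. Chst1 for Irx3 and Usp42 for Irx5 stood at ranks 4 and 7, both at r = 0.91. For the low members, part of the likeness thus depended on that choice.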

How the data were processed

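RNA of 3 TPS and 3 EPS lines, 2 technical replicates each, was captured on oligo(dT) beads and read in pairs of 100 bases. The authors trimmed reads (the submitters' processing notes name fastp 0.19.7), mapped them to GRCm38 with STAR 2.7.3a and deposited raw counts per gene, without normalization. The counting tool, annotation release and strand use are not given in the sources used here. Of 55401 identifiers, 55141 matched GENCODE M21 after the version was removed.

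Counts of technical replicates were summed per line, and the 6 lines were compared with edgeR 4.0.16 in R 4.3.3 (TMM factors, filterByExpr with about 10 counts in 3 lines and 15 in total, quasi-likelihood test, Benjamini-Hochberg adjustment over 17468 genes, threshold 0.05). The SE is the log2 fold change divided by the square root of F. CPM values were scaled by total and TMM factor, and TPM values by the union of exons. Intervals and the floor of 3 counts per library cover counting error only, because PCR copies of a molecule cannot be recognised without molecular identifiers. Library totals of 13676051 to 21821707 counts put 3 counts at 0.238 CPM in the EPS library where they weigh most.

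Alternatives were DESeq2 1.42.0, limma 3.58.1 (voom), other size factors and filters, single technical replicates, 12 libraries, a block by line number, a threshold of 0.01 and leaving out each line. The members and lists were chosen with earlier results of these data known. Named genes were the 6 Irx genes, the tested genes between them and the 3 nearest protein-coding genes on each side. Also named were the antisense genes over Irx3 and Irx6 and the genes called within 500 kb of a cluster. The 3 genes most like each of Irx1, Irx2, Irx3 and Irx5 in r over 12 libraries were named too, as were members of the lists. The deposited files held counts of 1 library each, with no column left unused.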

Additional observations from a re-analysis of the deposited data

Results flagged for a closer look

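Irx6 in technical replicate 1 of TPS line 1 stood apart from the other TPS libraries, at 0.349 CPM (6 counts) against 0.130 CPM in the next highest library and 0 in the lowest. Its gap to the next library was 0.627 of the whole range, just above Dixon's 95% critical value for 6 libraries. In all, 12 groups of libraries (6 genes in each cell type) were tested in this way, and chance marks about 1 in 20 such groups. The second technical replicate of that line had 1 count.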

How the results depend on the processing

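The log2 fold changes of Irx1 to Irx5 stayed above 0 under each alternative that gave a value. Irx4 did not pass the filter, and so has no value, with 1 CPM in 3 lines, with either technical replicate alone and with 12 libraries in edgeR. Leaving out 1 line gave 1.71 to 2.47 for Irx1, 0.47 to 0.97 for Irx2, 2.32 to 3.25 for Irx3, 2.61 to 3.59 for Irx4 and 2.02 to 2.80 for Irx5. The number of Irx genes called ran from 0 (without EPS line 2) to 4, with 0 to 2 for IrxA and 0 to 2 for IrxB, and 1 Irx gene was called without TPS line 3 and 2 without TPS line 1 or EPS line 1. Genes called higher ran from 1617 (without TPS line 3) to 2234 and lower from 493 (without TPS line 3) to 1047. The lists ran from 3 to 10 (fibroblast, higher), 1 to 4 and 0 to 2 (TALE, higher and lower), 0 to 3 and 0 to 1 (Irx-linked, higher and lower) and 8 to 10 (retinoic acid, higher).

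With the 12 libraries as samples, edgeR called 4067 higher and 3610 lower, and DESeq2 5567 and 3802, and Irx2 passed in both, at 0.76 (adjusted p = 0.0104) and 0.75 (adjusted p = 0.00225). Technical replicate 1 alone and a filter of 1 CPM in 3 lines, which drops Irx4, left 1 IrxA gene called. Technical replicate 2 alone left 2 Irx genes and 0 of IrxA, with Irx1 at 2.30 (adjusted p = 0.0527) and Crnde reversed to 0.022. Crnde was also reversed without EPS line 2, with a range of -0.49 to 0.26. In the main edgeR fit at an adjusted p of 0.01, 873 genes were higher and 258 lower. There 0 Irx genes were called (0 in IrxA and 0 in IrxB), since Irx1 (2.14), Irx3 (2.75), Irx4 (3.26) and Irx5 (2.49) missed the threshold. Without composition factors 750 genes were lower, the higher share of calls moved from 66.2% to 79.9% and the median of all genes shifted to 0.14. DESeq2 on 6 lines called 3445 genes higher, and 2 TALE genes lower. It gave Irx1, Irx3, Irx4 and Irx5 adjusted p of 0.000308, 1.19e-05, 0.00559 and 0.000163, so their miss at 0.01 depended on the method. Gm20554, Ice1 and Fto lost their calls under several of these settings too, and apart from fewer genes, samples or a stricter threshold the cause was not tested.

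Line numbers do not pair the lines by any label, and deviations of same-numbered lines correlated at 0.02, -0.12 and 0.04. Under a block by line number, 721 genes passed as lower, 2 Irx genes (0 of IrxA) were called, Irx1 was at 2.23 (adjusted p = 0.0743) and Irx4 at 3.11 (adjusted p = 0.0534), and 3 fibroblast genes, 3 TALE genes higher and 0 lower were called. Depth limits Irx4 and Irx6 most.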
